A study of Mus musculus with 12 samples.

Results

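The 8 transcripts described here encode transcription factors of the interferon pathway, 1 member of the STAT family (Stat2) and 7 of the interferon regulatory factor family (Irf1, Irf2, Irf3, Irf5, Irf7, Irf8 and Irf9). They were taken by gene symbol from a table of 20143 genes, and all 8 were among the 9186 genes tested, those with a mean of at least 10 counts per 1e6 counts (CPM). They were measured in livers of 6 Hsd17b13 knockout (KO) mice and 6 wild-type (WT) mice, with 1 RNA sequencing library per mouse. All 12 mice, the WT mice included, were 8 to 10 weeks old when they were put on CDAA-HFD, a high-fat diet that lacks choline and has defined amino acids, and they stayed on it for 12 weeks. A normal diet was not analysed here. Hsd17b13 encodes a lipid droplet enzyme of hepatocytes. How the knockout allele was made, and in which cells the gene is missing, the sources used here do not say. By its title the study asks how loss of the enzyme changes interferon signals and liver fibrosis, and its single comparison is KO against WT.

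Interferons bind receptors whose Janus kinases phosphorylate STAT proteins. After a type I or III interferon signal, STAT2 joins a further phosphorylated STAT and IRF9 to form the complex ISGF3, which binds interferon-stimulated response elements (ISRE) in the promoters of antiviral genes. Interferon-gamma acts mainly through a STAT dimer at gamma-activated sites (GAS), and Irf1 is a classical early target of it. IRF3, IRF5 and IRF7 lie on the other side of the circuit: nucleic acid sensors and Toll-like receptors activate them by phosphorylation, and they switch on interferon genes. Their activity is set by phosphorylation and by movement into the nucleus, neither of which transcript levels show.

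The promoters of these genes are shown because several carry the very elements their own pathway uses. A window of 250 bases before and 50 bases after each annotated start (RefSeq, GRCm38.p6, the mm10 assembly) was searched on both strands for an ISRE core, taken as GAAA, any 2 bases and GAAA, and for the GAS core TTCNNNGAA, which reads the same on both strands. All 8 genes had a window, 11 windows in all. Of 32851 windows of this length over all genes, 3.44% held the ISRE core and 8.30% the GAS core. Matches stand in capitals in the windows below, each written 5′ to 3′ along the gene.
Stat2, chr10:128270248-128270547, plus strand: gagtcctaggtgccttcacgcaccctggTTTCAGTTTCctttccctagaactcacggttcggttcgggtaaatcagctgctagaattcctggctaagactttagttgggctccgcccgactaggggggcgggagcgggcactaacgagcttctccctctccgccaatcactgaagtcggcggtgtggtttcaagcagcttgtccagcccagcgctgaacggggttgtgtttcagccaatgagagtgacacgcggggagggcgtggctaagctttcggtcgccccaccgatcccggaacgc
Irf1, chr11:53769764-53770063, plus strand: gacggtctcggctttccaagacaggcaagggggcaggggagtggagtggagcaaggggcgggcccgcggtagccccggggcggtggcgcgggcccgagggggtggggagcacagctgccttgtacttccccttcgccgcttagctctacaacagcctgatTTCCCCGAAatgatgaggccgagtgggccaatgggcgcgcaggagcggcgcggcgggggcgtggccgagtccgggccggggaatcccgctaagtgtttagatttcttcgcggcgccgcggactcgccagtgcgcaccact
Irf2, chr8:46739495-46739794, plus strand: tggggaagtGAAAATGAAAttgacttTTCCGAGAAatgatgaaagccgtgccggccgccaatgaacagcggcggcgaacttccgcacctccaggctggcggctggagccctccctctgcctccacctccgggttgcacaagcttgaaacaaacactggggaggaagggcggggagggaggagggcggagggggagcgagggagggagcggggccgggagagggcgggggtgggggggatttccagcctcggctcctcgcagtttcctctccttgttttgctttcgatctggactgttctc
Irf8, chr8:120736108-120736407, plus strand: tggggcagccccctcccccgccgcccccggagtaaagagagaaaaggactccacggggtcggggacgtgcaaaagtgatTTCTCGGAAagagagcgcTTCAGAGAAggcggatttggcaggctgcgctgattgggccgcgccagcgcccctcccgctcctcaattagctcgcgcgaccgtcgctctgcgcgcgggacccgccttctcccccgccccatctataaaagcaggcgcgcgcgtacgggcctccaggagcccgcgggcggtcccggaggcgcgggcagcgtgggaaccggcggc
Irf7, chr7:141266375-141266674, minus strand: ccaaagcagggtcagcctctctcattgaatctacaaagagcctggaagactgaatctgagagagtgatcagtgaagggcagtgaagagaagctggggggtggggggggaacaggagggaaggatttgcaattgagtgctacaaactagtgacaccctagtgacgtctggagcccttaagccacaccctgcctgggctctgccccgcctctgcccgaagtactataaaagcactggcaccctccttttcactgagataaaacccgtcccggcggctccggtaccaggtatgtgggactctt

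The Stat2 window held 1 ISRE core, TTTCAGTTTC, which is the motif read on the other strand. The first of the Irf1 windows held 1 GAS core, TTCCCCGAA, and the Irf2 window held 1 ISRE core, GAAAATGAAA, and 1 GAS core, TTCCGAGAA. These motifs do not overlap each other in the Irf2 window. The first of the Irf8 windows held 2 GAS cores, TTCTCGGAA and TTCAGAGAA. Neither core was found in the windows of Irf3, Irf5, Irf7 and Irf9 or in the further window of Irf1 and of Irf8. The Irf7 window is printed because Irf7 differed most between the genotypes.

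Depth and library checks frame the values that follow. The spacing of low values puts 1 CPM at 46.3 to 77.9 counts in the different libraries, so each value of the 8 genes rested on at least 1400.7 counts and had a counting error of at most 2.67%. Hsd17b13 itself was at 1.18 ± 0.181 CPM in KO and 347.5 ± 36.0 CPM in WT (SD, n = 6 each), and every library matched its genotype label. Hepatocyte markers summed to 68365 to 83253 CPM in KO and 66528 to 86078 CPM in WT (6 genes, albumin the highest). KO mice 1 and 3 stood apart from the other KO mice in how counts were split between a ribosomal protein gene, Rplp0, and its near-identical copy Gm8730. Gm8730 held 31.4% and 31.6% of the sum of Gm8730 and Rplp0 in KO mice 1 and 3, 59.7% to 60.9% in KO mice 2, 4, 5 and 6, and 7.09% to 8.19% in WT mice. Whether these mice differ from the other KO mice in genetic background was not tested, which limits what a fit without them means. Results are therefore given with and without these animals. They were also the KO mice with the lowest summed ISGF3 target genes, 1771.9 and 1432.6 CPM, and this was known when they were set apart, so a fit without them is no independent check.

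None of the 8 factors passed the test between KO and WT. Irf7, Irf9, Stat2 and Irf1 had KO means 1.20 to 1.66 times the WT means. Irf3, Irf2 and Irf8 had KO means 0.964 to 1.08 times the WT means, and Irf5 had a lower KO mean at 0.891 times WT. Differences were not tested between the factors, and the 95% intervals of neighbours in this order overlap. With limma and Benjamini-Hochberg adjustment over 9186 genes, 0 of the 8 passed an adjusted p of 0.05, where 0.152% of all genes passed in either direction, 0.109% higher and 0.0435% lower in KO. Before adjustment 2 had p under 0.05 with a higher KO level (Irf7 and Irf9) and 1 with a lower level (Irf5), where 4.51% of all genes were higher and 5.29% lower. Their median difference was 0.19, against -0.01 for all genes tested. Each difference is the KO mean minus the WT mean on the log2(CPM + 1) scale, with its standard error (SE). The limma p-values test that difference against the spread between these mice.

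**Figure D1:**
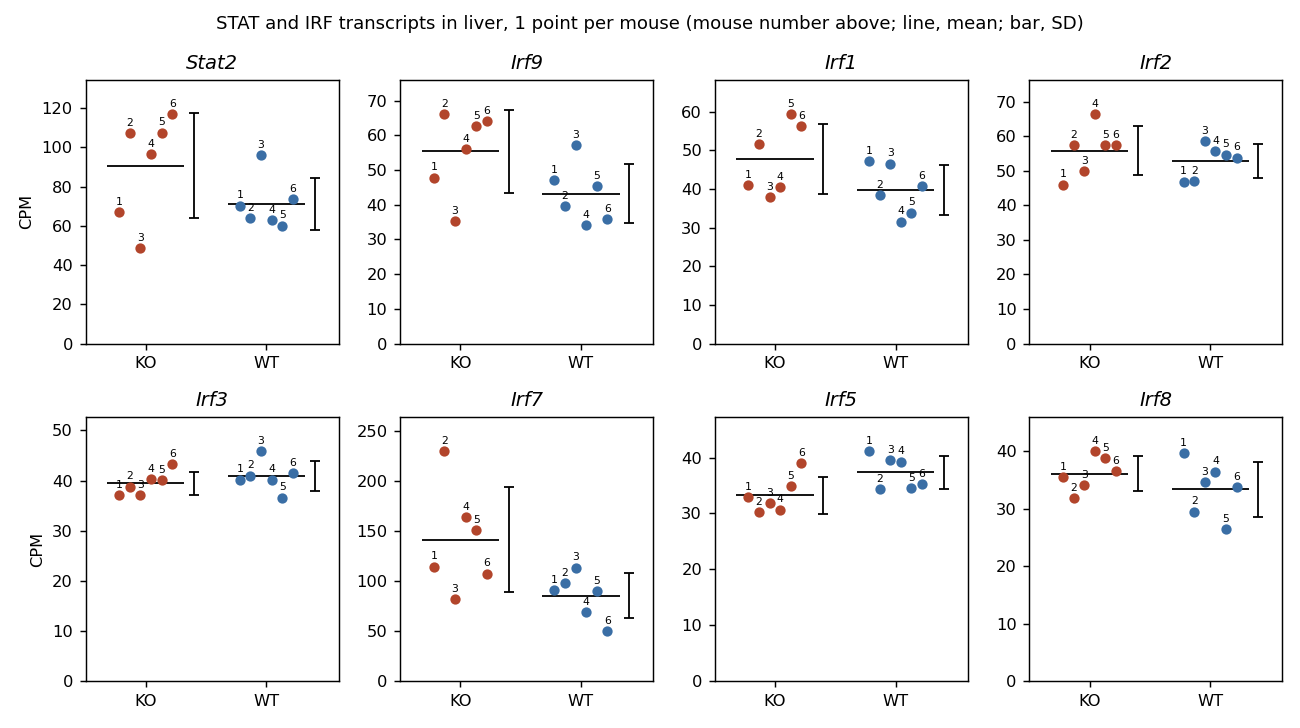
CPM of each of the 8 transcripts in KO (left) and WT (right) livers, 1 point per mouse with its number, the line at the mean of 6 mice and the bar at 1 SD. For Stat2, 4 of 6 KO mice lie above every WT mouse while KO mouse 3, at 48.8 CPM, lies below every WT mouse.

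Stat2 (ENSMUSG00000040033, chromosome 10, 128270559 to 128292849, mm10) encodes the STAT subunit that is particular to ISGF3 signalling. It was at 48.8 CPM in the lowest KO mouse, 101.8 at the median and 117.0 in the highest, against 60.1, 67.1 and 96.1 CPM in WT mice. KO mice 2, 4, 5 and 6 lay above every WT mouse, KO mouse 1 lay among the WT mice and KO mouse 3 below all of them, so the groups overlap. KO averaged 90.7 ± 26.8 CPM and WT 71.2 ± 13.2 CPM (SD, n = 6 each), a difference of 0.30 (SE 0.19, 95% confidence interval -0.12 to 0.72, limma adjusted p = 0.691). Of all genes tested, 4.43% had at least 4 KO mice above the whole WT range. With KO mice 1 and 3 left out the KO mean was 107.1 ± 8.39 CPM (n = 4), the difference 0.60 (SE 0.12) and the adjusted p 0.0390. Stat2 was the 1 member called higher in that fit, in which 0.836% of 9216 genes were. KO mice 1 and 3 held the lowest Stat2 levels of the KO mice, at 67.0 and 48.8 CPM. Leaving them out therefore raises the Stat2 difference by construction, so this call is no independent check.

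Irf9 (ENSMUSG00000002325, chromosome 14, 55603571 to 55610030, mm10) encodes the DNA-binding subunit of ISGF3. KO mice held 35.2 CPM at the lowest, 59.4 at the median and 66.1 at the highest, and WT mice held 34.1, 42.5 and 57.2 CPM. KO mice 2, 5 and 6 were above every WT mouse, and KO mouse 3 was lower than all but 1 of the WT mice. At least 3 KO mice were above the whole WT range for 10.5% of all genes tested. The means were 55.3 ± 11.9 CPM in KO and 43.2 ± 8.56 CPM in WT (SD, n = 6 each), with a difference of 0.34 (SE 0.16, limma unadjusted p = 0.0490, adjusted p = 0.509). Without KO mice 1 and 3 the KO mean was 62.3 ± 4.35 CPM and the difference 0.54 (SE 0.13, limma adjusted p = 0.0720). These mice were also the lowest KO mice for Irf9, so leaving them out raises the Irf9 difference by construction. The annotated Irf9 gene shares 123 bases with the neighbouring Rnf31 on the same strand, and Rnf31 was at 31.8 ± 5.25 CPM in KO and 28.4 ± 5.36 CPM in WT.

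Both ISGF3 subunits varied together from mouse to mouse. Over the 12 libraries, deviations of Stat2 and Irf9 from their genotype means had a Pearson r of 0.867 and a Spearman rho of 0.811, the highest Pearson r among the 28 pairs of the 8 genes. By Spearman rho the pair of Stat2 and Irf3 was higher, at 0.832 (Pearson r 0.762). This is a description: the points share their library and its CPM scaling, and both pairs were picked for their rank. The ratio of Stat2 to Irf9 within a library was 0.67 ± 0.16 in KO and 0.71 ± 0.22 in WT on the log2 scale (SD, n = 6 each). It differed by -0.04 (SE 0.11, exact two-sided permutation p = 0.742, also 0.742 when adjusted over 3 ratios), and no KO mouse lay above every WT mouse.

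Irf1 (ENSMUSG00000018899, chromosome 11, 53770014 to 53778374, mm10) encodes an activator induced by interferon-gamma that switches on antigen presentation genes and guanylate-binding proteins. Its values in KO mice were 38.0 CPM at the lowest, 46.3 at the median and 59.4 at the highest, and in WT mice 31.6, 39.6 and 47.2 CPM. KO mice 2, 5 and 6 lay above every WT mouse and the other KO mice lay among them. KO averaged 47.8 ± 9.11 CPM and WT 39.7 ± 6.40 CPM (SD, n = 6 each), a difference of 0.25 (SE 0.13, limma adjusted p = 0.567). Leaving out KO mice 1 and 3 gave 0.38 (SE 0.13, limma adjusted p = 0.236). Among all genes tested, 10.5% placed at least 3 KO mice above the whole WT range. Gm17334, which lies on the opposite strand inside Irf1, was at 5.87 ± 2.64 CPM in KO and 4.37 ± 1.38 CPM in WT, and whether reads were counted by strand is not stated.

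Irf2 (ENSMUSG00000031627, chromosome 8, 46739732 to 46847458, mm10) encodes a factor that binds the same elements as IRF1 and mostly restrains them. KO mice ran from 46.0 CPM through a median of 57.4 to 66.4 CPM, and WT mice from 46.9 through 54.2 to 58.7 CPM. KO mouse 4 was above every WT mouse and KO mouse 1 below every WT mouse. The means were 55.8 ± 7.05 CPM in KO and 52.8 ± 4.79 CPM in WT (SD, n = 6 each), and the difference was 0.07 (SE 0.09, 95% confidence interval -0.11 to 0.26, limma adjusted p = 0.862). In the fit without KO mice 1 and 3 it was 0.18 (SE 0.08, limma adjusted p = 0.397).

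The balance of activator to repressor was taken as the log2 ratio of Irf1 to Irf2 within each library. It was -0.23 ± 0.27 in KO and -0.41 ± 0.29 in WT (SD, n = 6 each). The difference of 0.18 (SE 0.16) was within the spread between mice (exact two-sided permutation p = 0.284, adjusted over 3 ratios p = 0.425). Of the KO mice, 1 lay above every WT mouse.

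Irf7 (ENSMUSG00000025498, chromosome 7, 141262706 to 141266481, mm10) encodes the inducible amplifier of type I interferon, low in most resting cells and raised by ISGF3. It had the largest difference of the 8 genes. KO mice held 81.6 CPM at the lowest, 132.8 at the median and 229.7 at the highest, and WT mice 50.2, 90.5 and 113.5 CPM. KO mice 2, 4 and 5 were well above the WT range, KO mouse 1 at 114.4 CPM was just above its top, and KO mice 3 and 6 lay inside it. At least 4 KO mice were above the whole WT range for 4.43% of all genes tested. KO averaged 141.4 ± 52.6 CPM and WT 85.3 ± 22.4 CPM (SD, n = 6 each). The difference was 0.69 (SE 0.24, 95% confidence interval 0.18 to 1.20, limma unadjusted p = 0.0118, adjusted p = 0.291). Without KO mice 1 and 3 the KO mean was 163.1 ± 50.5 CPM and the difference 0.92 (SE 0.23, limma adjusted p = 0.0926). Phrf1, which overlaps Irf7 by 45 bases on the opposite strand, was at 36.8 ± 4.59 CPM in KO and 38.8 ± 5.47 CPM in WT.

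Irf3 (ENSMUSG00000003184, chromosome 7, 44997648 to 45002848, mm10) encodes the constitutive counterpart of IRF7, present before infection and activated by phosphorylation. It was the steadiest of the 8, with KO mice at 37.1, 39.4 and 43.3 CPM (lowest, median and highest) and WT mice at 36.6, 40.6 and 45.8 CPM. All KO mice lay inside the WT range. The means were 39.4 ± 2.34 CPM in KO and 40.9 ± 2.97 CPM in WT (SD, n = 6 each). The difference of -0.05 (SE 0.06, limma adjusted p = 0.859) had a 95% confidence interval of -0.17 to 0.07. Bcl2l12, on the opposite strand across part of Irf3, was at 4.20 ± 0.662 CPM in KO and 4.10 ± 0.710 CPM in WT.

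Set against Irf3 in the same library, Irf7 was higher in KO by more than its SE but did not pass after adjustment. The log2 ratio of Irf7 to Irf3 ran from 1.11 through a median of 1.74 to 2.54 in KO mice and from 0.27 through 1.20 to 1.29 in WT mice. KO mouse 3 was inside the WT range and the other 5 KO mice were above it. KO mouse 6 was only just above, at 1.294 against 1.29 in the highest WT mouse. The difference was 0.74 (SE 0.27, exact two-sided permutation p = 0.0216, adjusted over 3 ratios p = 0.0649). Leaving out KO mouse 3 gave 0.86 (exact permutation, adjusted p = 0.0130), and leaving out KO mice 1 and 3 gave 0.93 (exact permutation, adjusted p = 0.0286). KO mouse 3 had the lowest ratio of the KO mice, so leaving it out raises the difference by construction and is no independent check. Leaving out any other single mouse gave 0.58 to 0.83 with exact permutation adjusted p from 0.0649 to 0.130.

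**Figure D2:**
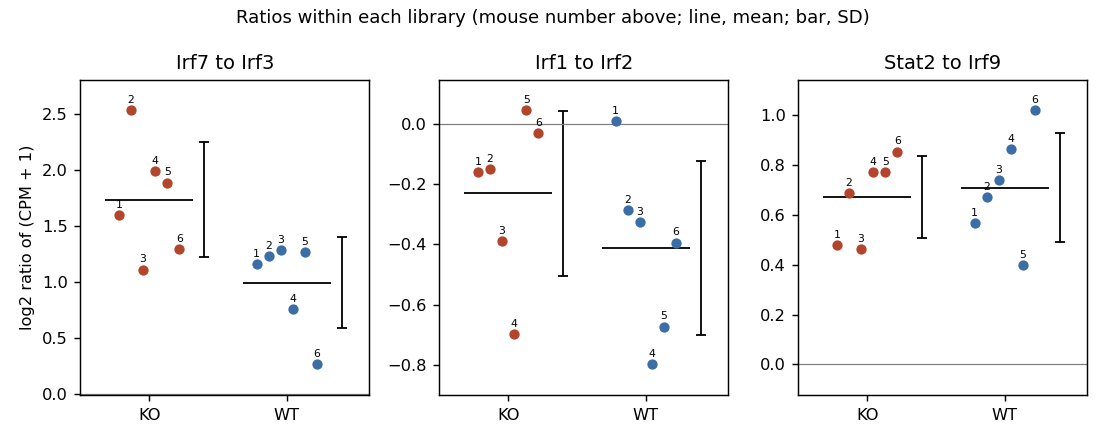
Log2 ratio of Irf7 to Irf3, Irf1 to Irf2 and Stat2 to Irf9 within each library, KO left and WT right, 1 point per mouse with its number, the line at the mean and the bar at 1 SD. The Irf7 to Irf3 ratio averaged 1.74 in KO and 1.00 in WT, and the Stat2 to Irf9 ratio 0.67 in KO and 0.71 in WT.

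Irf5 (ENSMUSG00000029771, chromosome 6, 29526625 to 29541871, mm10) encodes a factor of myeloid cells that carries Toll-like receptor signals to inflammatory cytokine genes. Unlike Irf7, Irf9, Stat2 and Irf1 it had a lower KO mean. KO mice held 30.2 CPM at the lowest, 32.4 at the median and 39.0 at the highest, and WT mice 34.3, 37.3 and 41.1 CPM. KO mice 1, 2, 3 and 4 lay below every WT mouse, and KO mice 5 and 6 lay inside the WT range. At least 4 KO mice were below the whole WT range for 3.90% of all genes tested. KO averaged 33.3 ± 3.26 CPM and WT 37.4 ± 2.96 CPM (SD, n = 6 each), a difference of -0.16 (SE 0.07, limma unadjusted p = 0.0356, adjusted p = 0.451). Leaving out KO mice 1 and 3 gave -0.15 for Irf5, -0.01 for Irf3 and 0.14 for Irf8. Tnpo3, which overlaps the end of Irf5 on the opposite strand by 1045 bases, was at 55.8 ± 2.62 CPM in KO and 57.6 ± 1.78 CPM in WT.

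Irf8 (ENSMUSG00000041515, chromosome 8, 120736358 to 120756694, mm10) encodes a factor needed for monocytes, dendritic cells and B cells. Its KO values ran from 31.9 through a median of 36.1 to 40.0 CPM and its WT values from 26.5 through 34.2 to 39.7 CPM. All but 1 of the KO mice lay inside the WT range. The means were 36.1 ± 2.99 CPM in KO and 33.4 ± 4.77 CPM in WT (SD, n = 6 each), with a difference of 0.12 (SE 0.09, limma adjusted p = 0.759). The whole of Irf8 lies inside the annotated gene Gm20388 on the same strand, which was at 23.5 ± 3.70 CPM in KO and 23.9 ± 2.72 CPM in WT, so how reads were divided between them is unknown.

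Macrophage markers were examined beside these myeloid factors. Of 9 markers of recruited macrophages, 8 were tested, 0 passed with limma over all genes, and 6 had negative differences with an unadjusted p under 0.05, as had 5.29% of all genes. They summed to 887.2 to 1333.8 CPM in KO mice and 1303.1 to 2275.6 CPM in WT mice. Of 6 KO mice 5 were under the whole WT range, as at least 4 were for 3.90% of single genes. The most abundant were lysozyme (Lyz2), at 535.8 ± 81.5 CPM in KO and 810.3 ± 162.0 CPM in WT, and the glycoprotein Gpnmb, at 445.6 ± 73.5 CPM in KO and 625.4 ± 136.6 CPM in WT. The list was not uniform: Ccr2 differed by only -0.05 (SE 0.12). Ly6c2, too low to test, had a higher KO mean, at 5.33 ± 2.4 CPM in KO and 3.08 ± 0.568 CPM in WT. Of 7 Kupffer cell markers, which mark the resident macrophages of the liver, 5 were tested and 5 were higher at an unadjusted p under 0.05 (4.51% of all genes), with 0 called. They summed to 544.7 to 728.4 CPM in KO and 360.7 to 540.6 CPM in WT, and all 6 KO mice lay above every WT mouse, which 0.359% of single genes showed. Cd5l, at 236.7 ± 26.5 CPM in KO and 168.2 ± 29.1 CPM in WT, and the iron exporter Slc40a1, at 236.4 ± 20.4 CPM in KO and 192.0 ± 20.2 CPM in WT, were the most abundant. The part of these markers in the Irf5 and Irf8 values was not tested. In whole liver, fewer cells of a type and less RNA per cell cannot be told apart.

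For markers of other cells the ranges of the summed levels overlapped between the genotypes. KO mice above every WT mouse numbered 4 of 6 for B cell, 3 for endothelial and 3 for stellate cell markers. They numbered 1 for plasmacytoid dendritic cell markers and 0 for conventional dendritic cell and for T and NK cell markers. Below every WT mouse were 2 KO mice for stellate and 1 for conventional dendritic cell markers. Of single genes, 4.43% had at least 4 KO mice above and 10.5% at least 3. Conventional dendritic cell markers summed to 54.0 to 77.8 CPM in KO and 56.0 to 79.4 CPM in WT, mostly from Wdfy4 and Zbtb46. Plasmacytoid dendritic cell markers summed to 45.1 to 114.1 CPM in KO and 43.1 to 91.1 CPM in WT, nearly all from Ly6d, while Siglech, a defining marker of these cells, was at 2.49 ± 0.554 CPM in KO and 2.30 ± 0.458 CPM in WT. B cell markers summed to 5.82 to 10.6 CPM in KO and 5.75 to 7.54 CPM in WT, and T and NK cell markers to 9.87 to 13.5 CPM in KO and 6.90 to 15.7 CPM in WT. Endothelial markers, led by Stab2 and Kdr, summed to 238.5 to 338.3 CPM in KO and 229.3 to 301.6 CPM in WT. Stellate cell markers, led by Reln, summed to 321.0 to 416.7 CPM in KO and 336.5 to 374.5 CPM in WT, but single markers of this list differed in opposite directions. Pdgfrb was at 39.8 ± 3.66 CPM in KO and 54.5 ± 7.74 CPM in WT (difference -0.44, SE 0.09, limma adjusted p = 0.0854, all 6 KO mice below every WT mouse, as for 0.533% of genes). Lrat was at 52.2 ± 7.0 CPM in KO and 38.3 ± 6.34 CPM in WT (difference 0.44, SE 0.11, limma adjusted p = 0.158, 5 of 6 KO mice above the WT range). At least 4 KO mice were above that range for 4.43% of genes. Of these markers, 2 of 7 conventional and 1 of 4 plasmacytoid dendritic cell markers were tested. All 5 endothelial markers and 4 of 5 stellate cell markers were tested too. The 5 B cell markers and the 9 T and NK cell markers were too low to test. With limma 0 of the tested markers passed over all genes. No listed marker was at 0 in any library.

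**Figure D3:**
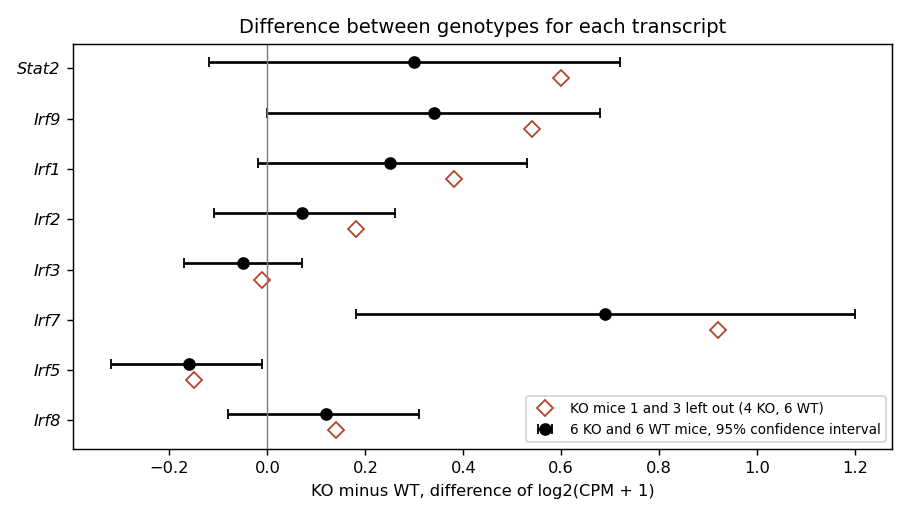
Difference between KO and WT mice for each of the 8 transcripts on the log2(CPM + 1) scale, with black points and 95% confidence intervals for all 12 mice and open diamonds for the fit without KO mice 1 and 3. The Irf7 difference of 0.69 is the largest and the Irf5 difference of -0.16 the most negative, and without KO mice 1 and 3 Stat2 is at 0.60.

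Levels can be set side by side between genes only per length, here as CPM per kb of the longest coding transcript in GENCODE M21. Irf7 was the most abundant on this scale, at 63.2 ± 24.0 CPM per kb in KO and 38.1 ± 10.0 in WT (SD, n = 6 each). In KO it was followed by Irf1 (22.4 ± 4.3), Irf2 (22.3 ± 2.8), Stat2 (20.6 ± 6.1), Irf3 (19.4 ± 1.1) and Irf9 (18.7 ± 4.0 CPM per kb), and neighbours in this order lay within the larger of their SDs. Irf5 at 14.8 ± 1.5 and Irf8 at 12.7 ± 1.0 CPM per kb were the lowest in KO, further apart from each other than either SD. In WT the order was Irf2 (21.1 ± 1.9), Irf3 (20.1 ± 1.5), Irf1 (18.6 ± 3.0), Irf5 (16.7 ± 1.3), Stat2 (16.2 ± 3.0), Irf9 (14.6 ± 2.9) and Irf8 (11.7 ± 1.7 CPM per kb). Neighbours in the WT order below Irf7 again lay within the larger of their SDs, except Irf8, which was at the edge of it below Irf9. The order depends on the length used, except that Irf7 stayed highest and Irf8 lowest. Over all annotated exons Irf2 was at 7.54 CPM per kb in KO and 7.14 in WT, above Irf8 only. On that scale Stat2 came after Irf7 in KO, at 15.3 CPM per kb, and Irf5 came after Irf7 in WT, at 12.9 CPM per kb.

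The spread between mice differed among the 8 genes. As a share of the mean, the SD was 37.2% in KO and 26.3% in WT for Irf7, 29.6% in KO and 18.6% in WT for Stat2, and 21.6% in KO and 19.8% in WT for Irf9. For Irf3 it was 5.92% in KO and 7.27% in WT, and for Irf5 9.80% in KO and 7.93% in WT. WT mouse 3 was the highest WT mouse for Stat2, Irf9, Irf7, Irf2 and Irf3. KO mouse 3 was the lowest KO mouse for Stat2, Irf9, Irf1 and Irf7. KO mouse 2 was the highest for Irf7 and Irf9 and the lowest for Irf5 and Irf8.

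**Figure D4:**
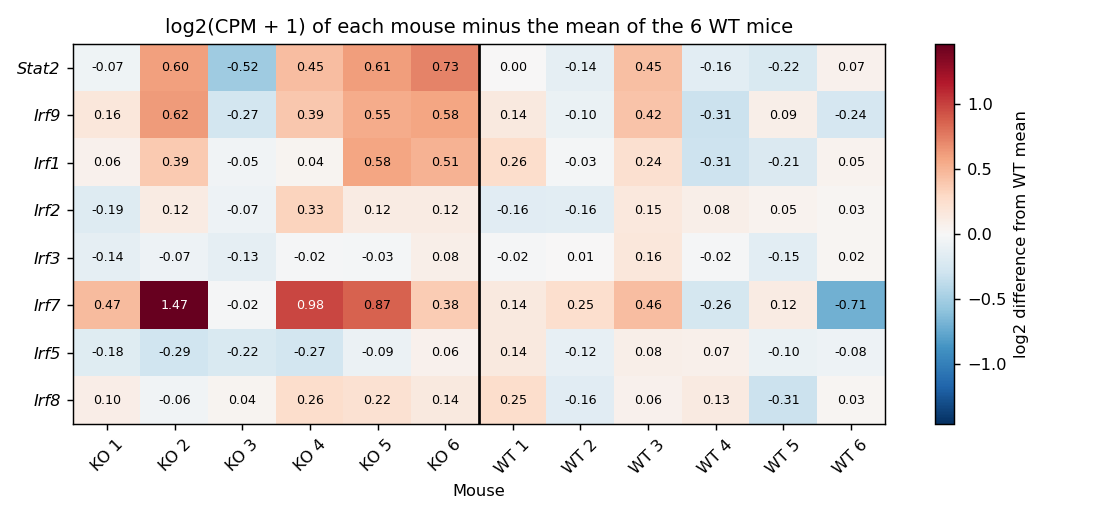
Log2(CPM + 1) of each mouse minus the mean of the 6 WT mice for each transcript, KO mice left of the line and WT mice right of it, red above and blue below the WT mean. KO mice 2, 4, 5 and 6 are above the WT mean for Stat2, Irf9, Irf1 and Irf7, KO mouse 3 is below it for all 4, and Irf3 stays between -0.15 and 0.16 in all mice.

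The target genes of these factors had larger differences than most of the factors themselves. Of all 9186 genes tested, 4186 were on the positive side. Of 36 ISGF3 target genes 33 were tested, and 33 of 33 were on the positive side (median 0.53), against 0.19 for the 8 factors and -0.01 for all genes. With limma 0 passed over all genes and 25 were higher at an unadjusted p under 0.05, as were 4.51% of all genes. Their summed level was 1432.6 to 3314.1 CPM in KO mice and 1291.0 to 1921.3 CPM in WT mice. The same 4 KO mice that led in Stat2 lay above every WT mouse, as at least 4 did for 4.43% of single genes. The 3 with the smallest p were the nucleic acid sensor Zbp1 (difference 0.86, SE 0.23), the ubiquitin ligase Dtx3l (0.37, SE 0.10) and the ligase Herc6 (0.63, SE 0.18), with limma adjusted p from 0.170 to 0.198. Without KO mice 1 and 3, 21 of the ISGF3 targets passed, where 0.836% of 9216 genes were called higher. Those mice had the lowest KO sums of this same list, 1771.9 and 1432.6 CPM, which was known when they were set apart. Leaving them out raises the KO mean of the list sum by construction, so this count is no independent check.

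Of 28 genes induced by IRF1 or interferon-gamma 25 were tested, and 25 of 25 were on the positive side (median 0.44), as were 4186 of all 9186 genes. The chemokine gene Cxcl9 passed over all genes (25.6 ± 5.78 CPM in KO and 12.6 ± 2.51 CPM in WT, SD, n = 6 each, difference 0.95, SE 0.15, limma adjusted p = 0.0133). Cxcl9 lies on chromosome 5, as do Hsd17b13 and the oligoadenylate synthetase genes among the ISGF3 targets, Oas1a included. That chromosome holds 8 of the 14 genes called, Hsd17b13 included, and 6.48% of the genes tested, and none of the 8 factors lies on it. For genes near Hsd17b13, loss of the enzyme and the DNA that came with the knockout allele cannot be told apart. No gene of this list passed when WT mouse 3 was left out, a fit that called 9 of 9186 genes. When KO mouse 3 was left out, 5 passed, in a fit that called 25 of 9211 genes. With all mice, a further 21 genes of the list were higher at an unadjusted p under 0.05 (4.51% of all genes). Next by p came the immunoproteasome subunit Psmb9 (0.44, SE 0.09) and the GTPase Gbp9 (0.60, SE 0.12), which also lies on chromosome 5, with limma adjusted p of 0.0854 and 0.0964. The list summed to 1308.9 to 2231.7 CPM in KO mice and 1048.3 to 1359.7 CPM in WT mice. Of 6 KO mice 5 exceeded the whole WT range, as at least 4 did for 4.43% of single genes. In the fit without KO mice 1 and 3, 10 passed, where 0.836% of all genes were called higher and 0.141% lower. These lists were drawn up with earlier results of these data known and overlap the gene sets those results used, so their direction is not independent support.

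Single genes upstream of the factors differed in both directions, evenly among receptors and Janus kinases and mostly positive among sensors, adaptors and kinases. Of 9 interferon receptor and Janus kinase genes 8 were tested, 4 with positive and 4 with negative differences and a median of -0.02. With limma 0 passed over all genes, and 1 was lower at an unadjusted p under 0.05, the interferon-gamma receptor subunit Ifngr1 at 44.3 ± 3.57 CPM in KO and 51.2 ± 4.74 CPM in WT (difference -0.20, SE 0.07, limma adjusted p = 0.303). Its partner Ifngr2 was at 51.5 ± 7.25 CPM in KO and 57.3 ± 5.12 CPM in WT, and the type I receptor subunit Ifnar1 at 69.9 ± 3.23 CPM in KO and 72.4 ± 5.02 CPM in WT. Of 25 sensors, adaptors and kinases that activate IRF3, IRF5 and IRF7, 19 were tested, 13 with positive and 6 with negative differences, a median of 0.05 and 0 called. This list summed to 810.4 to 969.9 CPM in KO and 797.5 to 905.7 CPM in WT. The sums of KO mice 2, 4, 5 and 6 exceeded the WT maximum, and those of KO mice 1 and 3 fell inside the WT range. Among single genes, 4.43% had at least 4 KO mice over the WT maximum. The RNA sensor Ifih1 was the 1 with an unadjusted p under 0.05, at 101.6 ± 25.1 CPM in KO and 73.5 ± 9.15 CPM in WT (difference 0.44, SE 0.14, limma adjusted p = 0.260). The related sensor Ddx58 differed by 0.38 (SE 0.18) and the double-stranded RNA receptor Tlr3 by 0.26 (SE 0.13). Ifih1 and Ddx58 are themselves interferon-induced.

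Partners and repressors of the factors were mixed. Of 23 listed genes 21 were tested, 7 with positive and 14 with negative differences, a median of -0.02 and 0 called with limma. The protease Usp18, an interferon-induced brake on the type I receptor that binds STAT2 and is also counted among the ISGF3 targets, was at 52.4 ± 20.8 CPM in KO and 31.4 ± 10.3 CPM in WT (difference 0.68, SE 0.26, limma adjusted p = 0.347). The ubiquitin ligase Trim21 was at 11.7 ± 2.89 CPM in KO and 8.72 ± 1.35 CPM in WT (0.37, SE 0.15). Irf2bp2, a corepressor that binds IRF2, was lower in mean, at 153.3 ± 30.9 CPM in KO and 195.6 ± 39.0 CPM in WT (-0.35, SE 0.15, limma adjusted p = 0.422). These 3 were the only genes of the list with an unadjusted p under 0.05.

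**Figure D5:**
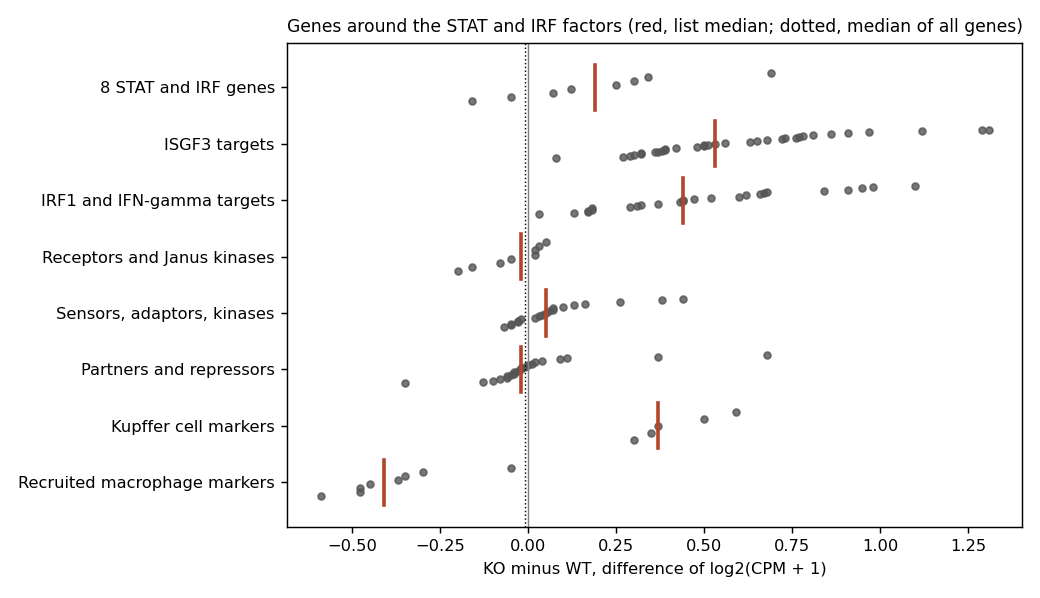
Difference between KO and WT for each tested gene on the log2(CPM + 1) scale, 1 row per list, with the list median in red and the median of all 9186 genes as a dotted line. All 33 ISGF3 targets and all 25 IRF1 and interferon-gamma targets lie right of 0, while receptors and Janus kinases centre on -0.02 and recruited macrophage markers on -0.41. Of all 9186 genes tested, 4186 had positive differences.

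The genes whose levels tracked each factor most closely from mouse to mouse differed by factor. For each factor the 3 genes with the highest Pearson r of deviations from the genotype mean over 12 libraries were taken from all genes tested, as a description. For Irf9 they were Rtp4 (r = 0.980), Apol9a (0.947) and H2-T24 (0.945), and for Stat2 the dynamin-like GTPase gene Mx2 (0.963), Uba7 (0.960), which encodes the enzyme that activates ISG15, and A930037H05Rik (0.959). For Irf7 they were Oas1a (0.951), Gbp3 (0.947) and Parp16 (0.938), and for Irf1 the immunoproteasome gene Psmb8 (0.930), Cstf1 (0.902) and the exonuclease gene Trex1 (0.884). The genes nearest to Irf3 were Josd2 (0.963), Dvl1 (0.953) and Trim65 (0.938), and those nearest to Irf2 were Pex11g (0.942), Sema4g (0.918) and Cdc42ep4 (0.910). For Irf5 they were Tcf20 (0.931), Phc2 (0.929) and the haematopoietic GTPase gene Rac2 (0.922), and for Irf8 Rasa3 (0.957), Adgrl1 (0.927) and Meis2 (0.924). Of the 24 genes so named, 6 belong to the ISGF3 or IRF1 target lists (Rtp4, Mx2, Uba7, Oas1a, Gbp3 and Psmb8), all of them nearest to Irf9, Stat2, Irf7 or Irf1. These lists hold 33 and 25 of the 9186 genes tested. They were drawn up with earlier results of these data known, and the 24 genes were picked by rank, so the overlap is no independent support.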

How the data were processed

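RNA from 25 to 100 mg of liver was depleted of ribosomal RNA and made into directional libraries, per the labels' protocols, although the molecule label reads polyA RNA. The deposited table holds CPM values for 20143 Ensembl genes: each library sums to 1e6, tested on the values. The submitters' processing notes name mm10, Partek 10.0, STAR 2.7.3a and DESeq2 1.14.1 without their roles, and the sources used here do not give the counting rule. Low values did not give whole reads for nearly all genes (70.1% to 73.1% lay within 0.02 steps of a whole number, where an even spread gives 4%), so no count test was run. GENCODE M21 gave symbols and lengths. 88 IDs without a symbol held 9.59% of counts.

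KO and WT were compared with limma 3.58.1 (R 4.3.3) on log2(CPM + 1) with a mean trend, for genes averaging 10 CPM or more, and Benjamini-Hochberg adjustment at 0.05. The pseudocount understates changes of low genes. The fit was tested on simulated data. The 3 ratios were compared by an exact permutation test over 924 assignments of mice (SciPy 1.17.1). Intervals are for the mean difference and rest on the spread between mice, and counting error covers counting only. The labels do not say whether mice shared litters or cages. No libraries of a group agreed within sampling noise (median chi-square per gene 5.20 to 20.5).

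The 8 members, the 6 pathway lists and 9 cell marker lists were chosen with earlier results of these data known, and 1 gene of the further STAT and IRF genes is not reported here. Named genes were the members, Hsd17b13, the 3 smallest p of each pathway list, the most abundant genes of marker lists and the 3 genes most correlated with each member. Lrat was added after its values were seen. Alternatives changed the pseudocount, filter, scaling, mean trend, library weights, replicate block and the libraries included.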

Additional observations from a re-analysis of the deposited data

How the results depend on the processing

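Each difference of the 8 factors was recomputed under 22 alternatives. Stat2 ran from 0.22 to 0.60, Irf9 from 0.28 to 0.54, Irf1 from 0.19 to 0.38, Irf7 from 0.53 to 0.92, Irf2 from 0.02 to 0.18, Irf8 from 0.05 to 0.17, Irf5 from -0.21 to -0.12 and Irf3 from -0.08 to 0.00, and none changed direction. Without KO mice 1 and 3, Stat2 passed at 0.60 (limma adjusted p = 0.0390), the 1 call among the factors in any alternative. Those mice held the lowest Stat2 levels of the KO mice, so this call is no independent check. The median of all genes moved to at most 0.0356, under median-of-ratios rescaling.

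Counts of called genes were less stable. Genes called higher in KO numbered 10, against 16 with a mean of at least 1 CPM, 16 with median-of-ratios rescaling, 19 with library weights, 77 without KO mice 1 and 3, and 7 to 19 leaving out 1 library. Genes called lower numbered 4, against 15 with a mean of at least 1 CPM, 16 with no filter, 8 with quantile normalization, 11 with median-of-ratios rescaling, 16 with library weights, 13 without KO mice 1 and 3, and 2 to 6 leaving out 1 library. Called ISGF3 targets numbered 0, against 21 without KO mice 1 and 3 and 0 to 1 leaving out 1 library. The count of 21 is no independent check, because KO mice 1 and 3 had the lowest KO sums of that list. Called IRF1 and interferon-gamma targets numbered 1, against 2 with quantile normalization, 5 with median-of-ratios rescaling, 5 with library weights, 10 without KO mice 1 and 3, and 0 to 5 leaving out 1 library. Called sensors numbered 0, against 1 without KO mice 1 and 3. The cause was not tested.

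The Irf7 to Irf3 ratio difference was 0.58 to 0.86 leaving out 1 library and 0.93 without KO mice 1 and 3, and 0.74 with the replicate block (exact permutation of signs within pairs, adjusted p = 0.188). The Stat2 to Irf9 ratio difference changed sign around 0, at 0.00 without KO mouse 3, 0.02 without WT mouse 6 and 0.06 without KO mice 1 and 3, with a range of -0.10 to 0.02 leaving out 1 library.

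Mouse numbers did not pair the libraries: same-numbered mice correlated between -0.514 and 0.388, and 0 of 6 KO mice correlated best with their own number. With the replicate block all 8 differences were the same, with limma adjusted p of 0.272 for Irf7 and 0.717 for Stat2, and 11 genes were called.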

Other observations

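The further STAT and IRF genes examined all had lower KO means. Of 6 listed, 4 were tested, 4 had negative differences with a median of -0.10 (5000 of all 9186 genes were negative), and 0 passed with limma over all genes. At an unadjusted p under 0.05, 1 was lower, as were 5.29% of all genes. That gene, Stat5a, which carries growth hormone and cytokine signals, was at 27.3 ± 2.87 CPM in KO and 31.8 ± 3.76 CPM in WT (SD, n = 6 each), a difference of -0.22 (SE 0.08, limma adjusted p = 0.384). KO was below the whole WT range in 4 of 6 mice, and 3.90% of all genes tested had at least 4 such mice. The close relative of Stat5a, Stat5b, whose sequence is similar enough for reads to be divided between them, was at 76.6 ± 4.99 CPM in KO and 83.6 ± 8.35 CPM in WT, and no KO mouse lay outside the WT range on the low side. Stat6, which carries interleukin-4 signals, was at 81.4 ± 5.68 CPM in KO and 86.1 ± 4.06 CPM in WT, a difference of -0.08 (SE 0.05, limma adjusted p = 0.715). Irf4 at 1.46 CPM in KO and 1.59 CPM in WT and Stat4 at 1.12 CPM in KO and 1.37 CPM in WT were too low to test.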
